A study of Mus musculus with 38 samples.

Results

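Mouse EpiSC-like cells without c-Jun (JunKO) were compared with wild type (WT) cells of the same kind on day 3 of culture in iCD1, a chemically defined reprogramming medium that moves primed cells towards the naive state. The comparison held 4 of the 38 RNA libraries of the series, 2 per genotype, chosen by their labels as JunKO-kiEpiSC-iCD1 and WT-kiEpiSC-iCD1, replicates 1 and 2. Per the methods of the study, a pair of guides flanking the single exon of Jun was used to delete it in embryonic stem cells (ESC), which were then converted to primed EpiSC-like cells. The k of the kiEpiSC labels, in both genotypes, is read as a Klf4 transgene. For its Klf4 line of EpiSC (kEpiSC) the study describes it as lentiviral, driven by a CAG promoter and selected with G418, beside an Oct4-GFP reporter. A legend in the study calls RNA replicates biological, but how many clones of each genotype were used and what separates the replicates of a group is not given in the sources used here, so p-values measure only the spread between these libraries. Totals ran from 2882932 to 3536743 expected counts per library. A further 2 pairs of groups, used only to set the iCD1 difference beside them, were the same lines on day 3 in iCD1 with a JNK inhibitor (JNKi, SP600125 in the study's methods, dose not given in the labels; 2 JunKO and 2 WT libraries) and primed cells (JunKO-iEpiSC and JunKO-kiEpiSC against WT-iEpiSC and WT-kiEpiSC, 1 library each). The 2 primed libraries of a genotype are thus of different lines. The iEpiSC labels lack the k, and whether those cells carried the Klf4 transgene is not given in them.

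Naive cells resemble the epiblast of the blastocyst and express factors such as Esrrb, Tfcp2l1, Klf2 and Zfp42 together with the core factors Pou5f1, Sox2 and Nanog. Primed cells keep the core factors, lose the naive ones and express genes of the later epiblast such as Fgf5. c-Jun is a subunit of AP-1, a family of paired leucine zipper factors that bind related short DNA elements. c-Jun itself is activated by the JNK kinases.

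The targeted gene was low in both JunKO libraries. Jun had 8.71 and 10 CPM (counts relative to the library total, scaled by TMM factors) in the JunKO libraries, against 247 and 114 CPM in the WT libraries. The groups were far apart, and the residual level in JunKO was not 0. The log2 fold change was -4.26 ± 0.37 (SE, n = 2 per genotype; edgeR quasi-likelihood test, adjusted p = 0.00211), and Jun passed the test in each of 12 fits that left out 1 library.

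Across 13152 genes tested, 206 differed between JunKO and WT cells at an adjusted p under 0.05 (edgeR), which is 1.57% of them. Of these, 177 were higher in JunKO (1.35% of the genes tested) and 29 lower (0.22%), and 121 changed at least 2-fold (0.92%). The median log2 fold change over all genes was 0.00. Chromosome 8 held 98 of the higher genes and is described apart, at the end. Outside chromosome 8, 107 of 12442 genes differed (0.86%), of which 79 were higher (0.635%) and 28 lower (0.225%).

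The number of calls rested on single libraries. Without WT replicate 1 it was 5, without WT replicate 2 it was 18, and without JunKO replicate 2 it was 46. Leaving out 1 of the 4 primed libraries, which add to the estimate of spread, gave 65 to 85 calls, leaving out either WT library with JNKi gave 98 and 89, and leaving out either JunKO library with JNKi gave 377 and 378. With chromosome 8 taken out before testing, 52 calls remained among 12442 genes, 36 of them higher and 16 lower. Of the genes the study names, 2 were called higher in that fit, against 7 outside chromosome 8 in the fit of all genes. For single genes below, lost calls are given mainly for fits without 1 iCD1 library. Many calls, those of Esrrb and Nr5a2 among them, were also lost without 1 primed library or 1 WT library with JNKi. Jun, Cdkn1c, Grb10, Rbmx and 5730507C01Rik passed the test in all 12 fits that left out 1 library; the last of these was named after its values were seen.

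Genes listed for the naive state were higher in JunKO cells. The list also holds Sox2, a core factor that primed cells keep, so it overlaps the core list below. Of 28 naive genes listed, all tested, 14 rose, 0 fell and 14 did not pass the test, and the median log2 fold change was 2.44 against 0.00 over all genes. Over all genes tested, 1.35% rose and 0.22% fell. In 24 of the 28, both JunKO libraries lay above both WT libraries, an arrangement found in 21.2% of all genes tested (the opposite one, found in none of the 28, in 20.2%). The list's count depended on the fit: 4 naive genes were called with chromosome 8 taken out before testing, 0 without WT replicate 1, 5 without WT replicate 2 and 2 without JunKO replicate 2. The median stayed between 1.70 and 3.63 in the 4 fits that left out an iCD1 library.

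Nanog, a core factor that is also high in naive cells, had 45.2 and 92.3 CPM in the JunKO libraries, against 4.495 and 19.03 CPM in the WT libraries. Its log2 fold change was 2.53 ± 0.46 (SE, n = 2 per genotype; edgeR adjusted p = 0.026). Without WT replicate 1 the adjusted p was 0.215 at a log2 fold change of 1.86, and without JunKO replicate 2 it was 0.124. Every JunKO library was above every WT library, and replicate 2 was the higher one in both genotypes.

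Sox2, the partner of Pou5f1 in the core network, had close replicates. It stood at 205 and 206 CPM in the JunKO libraries, against 89.9 and 101 CPM in the WT libraries. The log2 fold change was 1.10 ± 0.13 (SE; edgeR adjusted p = 0.00677). Among the fits that left out 1 library, Sox2 lost the call only without WT replicate 1, at a log2 fold change of 1.02 and an adjusted p of 0.140.

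Esrrb, an orphan nuclear receptor that sustains naive self-renewal, had 55.5 and 93.7 CPM in the JunKO libraries, against 4.15 and 18.0 CPM in the WT libraries. The log2 fold change was 2.73 ± 0.52 (SE; edgeR adjusted p = 0.0309), and without WT replicate 1 it was 2.05. Nr5a2, another nuclear receptor of naive cells, was low in WT. It had 9.36 and 19.1 CPM in the JunKO libraries, against 0.346 and 1.97 CPM in the WT libraries (log2 fold change 3.56 ± 0.77, edgeR adjusted p = 0.0494). Dppa5a, an RNA-binding protein abundant in ESC, had 94.9 and 190 CPM in the JunKO libraries, against 9.68 and 35.1 CPM in the WT libraries (2.66 ± 0.55, edgeR adjusted p = 0.0444). None of these 3 genes was called without WT replicate 1, without WT replicate 2 or without JunKO replicate 2. Dppa5a, Nanog and Pou5f1 have processed copies in the genome, between which reads may be split.

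Tdgf1, a Nodal co-receptor, was among the largest changes. It had 18.4 and 42.3 CPM in the JunKO libraries, against 0.346 and 2.95 CPM in the WT libraries. The log2 fold change was 4.16 ± 0.56 (SE; edgeR adjusted p = 0.0114), and it was 3.36 without WT replicate 1, where the adjusted p was 0.140 and the call was lost. Gdf3, a TGF-beta family ligand of the same pathway, had 9.36 and 18.0 CPM in the JunKO libraries, against 0 and 1.97 CPM in the WT libraries (3.72 ± 0.74, edgeR adjusted p = 0.0375). Of 14 Nodal pathway genes tested, these 2 rose and 0 fell, against 0.635% higher and 0.225% lower among genes outside chromosome 8. The list's median log2 fold change was 1.65, with 12 of 14 values above 0. Without JunKO replicate 2 the median was 0.51, with 9 of 14 above 0, and without WT replicate 2 it was 2.66. The list had 0 calls without WT replicate 1 and 1 call each without WT replicate 2 and without JunKO replicate 2, and Gdf3 lost its call in all 3 of these fits. Lefty2, a Nodal antagonist, had 11.3 and 84.3 CPM in the JunKO libraries, against 3.11 and 5.58 CPM in the WT libraries and did not pass (edgeR adjusted p = 0.0592), and nor did the ligand Nodal itself (edgeR adjusted p = 0.0713).

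Dnmt3l, a cofactor of the DNA methyltransferases, had 3.55 and 9.14 CPM in the JunKO libraries and no count in either WT library. With 3 counts set over the WT group as a floor, it was at least 12.9-fold higher in JunKO (43 counts in all; the bound covers counting error only). Fgf4, the growth factor that signals to the epiblast and hypoblast, had 6.45 and 27.7 CPM in the JunKO libraries, against 0.692 and 1.97 CPM in the WT libraries (3.65 ± 0.79, edgeR adjusted p = 0.0496). Morc1, a silencer of transposons in the germline, had 16.5 and 29.1 CPM in the JunKO libraries, against 0.346 and 5.91 CPM in the WT libraries (2.83 ± 0.62). These low genes sat close to the threshold, and each was lost without WT replicate 1 and without JunKO replicate 2. Of 12 DNA methylation genes tested, Dnmt3l was the one called.

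Zfp42 and Klf2, both naive markers, lie on chromosome 8, whose genes were raised as a whole in JunKO. Zfp42 (Rex1) had 27.1 and 51.1 CPM in the JunKO libraries, against 2.08 and 6.23 CPM in the WT libraries (log2 fold change 3.21 ± 0.51, edgeR adjusted p = 0.0202). Klf2, a Kruppel-like factor of naive cells, had 62.0 and 80.6 CPM in the JunKO libraries, against 17.3 and 21.3 CPM in the WT libraries (1.88 ± 0.28, edgeR adjusted p = 0.0148). Both values were above the chromosome's median of 0.52, and both calls were lost without either WT library or without JunKO replicate 2. The naive count outside chromosome 8 was 12, with the same median of 2.44.

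Several named factors did not pass in the fit of all 12 libraries. Pou5f1 had 81.0 and 226 CPM in the JunKO libraries, against 12.8 and 50.5 CPM in the WT libraries (log2 fold change 2.27 ± 0.54, edgeR adjusted p = 0.0727). With a replicate block it passed (edgeR adjusted p = 0.00531), and it did so in 6 of 24 alternatives in all. Tfcp2l1, a target of LIF signalling, had 37.4 and 72.3 CPM in the JunKO libraries, against 8.99 and 21.0 CPM in the WT libraries (1.87 ± 0.48, edgeR adjusted p = 0.0902). In both genes the JunKO libraries lay above the WT libraries, but the replicates of a genotype were far apart. Klf4, endogenous and transgenic reads together, overlapped between genotypes, at 50.3 and 62.0 CPM in the JunKO libraries and 87.8 and 46.6 CPM in the WT libraries (-0.25 ± 0.26, edgeR adjusted p = 0.789). The study counts Klf4 among the genes activated on day 3 without c-Jun, whereas the value here was negative and did not pass. Kdm3a, Kdm5b, Sap30 and Sall4, which the study lists among genes activated in c-Jun knockout cells on day 3, also did not pass. Their log2 fold changes were 0.05, 0.39, 0.41 and 0.34 (edgeR adjusted p = 0.941, 0.235, 0.447 and 0.510). The study screened its list by any rise over WT, a looser threshold than the test used here, and these values were all positive. The study names Fat1 and E2f7 as higher in primed EpiSC-like cells without c-Jun, and Lin28a as a primed marker, and not for day 3 in iCD1. In iCD1, Fat1, E2f7 and Lin28a did not pass, at 0.51, -0.03 and 0.01 (edgeR adjusted p = 0.209, 0.979 and 0.990).

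**Figure D1:**
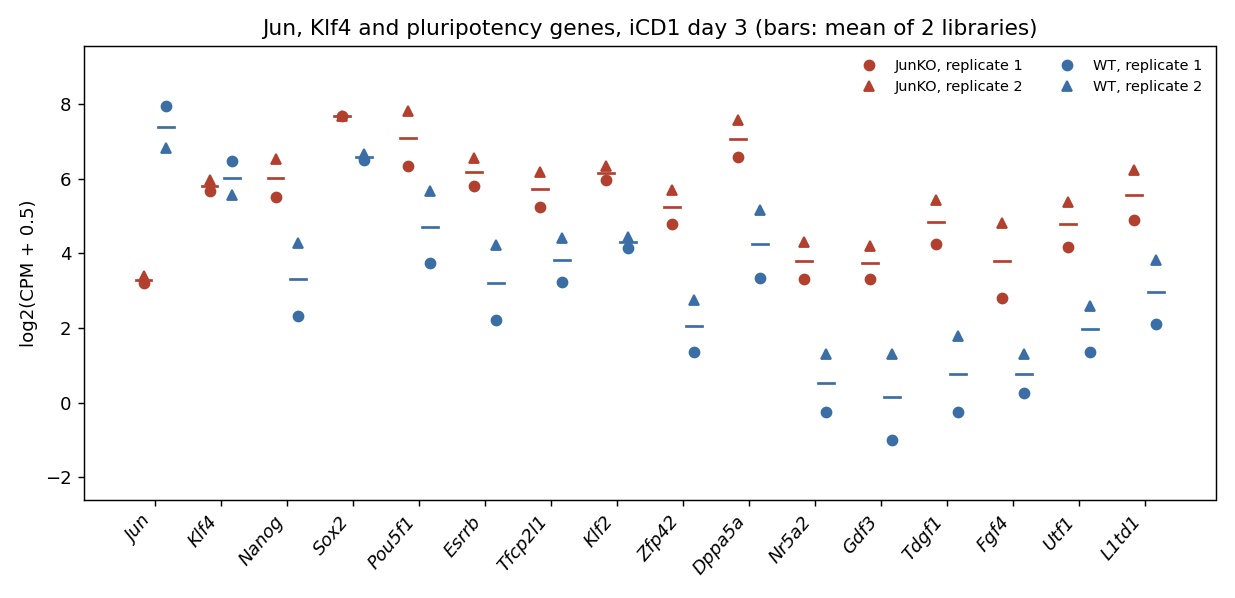
Levels of Jun, Klf4 and 14 pluripotency genes on the y axis as log2(CPM + 0.5), with JunKO libraries (red) left of WT libraries (blue); circles are replicate 1, triangles replicate 2 and bars the mean of 2 libraries on this scale. Jun is lower in JunKO, Klf4 overlaps, and the other 14 genes have both JunKO libraries above both WT libraries.

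Replicate 2 gave the higher naive levels in both genotypes: 26 of the 28 naive genes were higher in JunKO replicate 2 than in JunKO replicate 1, and 22 were higher in WT replicate 2 than in WT replicate 1. The summed CPM of the 28 genes was 971 and 1542 in the JunKO libraries, against 413 and 479 in the WT libraries. In a mixed culture, more naive-like cells and more RNA of these genes per cell cannot be told apart.

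The naive genes called stood below the level of fully reprogrammed cells in both genotypes. For scale, the induced pluripotent cells of the series (kiPSC, 2 libraries) were used, in TPM, a level scaled by transcript length. Nanog stood at 39.9 and 79.5 TPM in the JunKO libraries and 4.08 and 16.3 TPM in the WT libraries, with 905 and 520 TPM in kiPSC. Across the 14 naive genes called, the JunKO mean was 6.23% to 67.3% of the kiPSC mean (median 11.96%), and the WT mean was 0 to 19.4% (median 1.46%). Pou5f1 was far below its primed level in both genotypes, which was 1008 and 1309 CPM in the 2 JunKO primed libraries and 1101 and 1424 CPM in the 2 WT primed libraries.

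Of the genes tested outside chromosome 8, which holds none of the core list, 0.635% rose and 0.225% fell. Among 10 core pluripotency genes tested, 5 rose in JunKO, 0 fell and 5 did not pass, with a median log2 fold change of 1.27. Besides Nanog and Sox2 these included Utf1 and L1td1. Sox2 is counted in the naive list too. Utf1, a chromatin-associated factor of undifferentiated cells, had 17.4 and 41.4 CPM in the JunKO libraries, against 2.08 and 5.58 CPM in the WT libraries (2.93 ± 0.51, edgeR adjusted p = 0.0248). L1td1, an RNA-binding protein derived from a LINE-1 element, had 29.4 and 74.6 CPM in the JunKO libraries, against 3.80 and 13.8 CPM in the WT libraries (2.55 ± 0.50, edgeR adjusted p = 0.0375). The core calls numbered 0 without WT replicate 1, and 2 each without WT replicate 2 and without JunKO replicate 2.

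No primed gene passed as lower, where 0.22% of all genes tested did and 1.35% passed as higher. Of 33 tested, 2 rose, Nkx1-2 among them, 0 fell and 31 did not pass, and the list's median log2 fold change was 0.06. Nkx1-2, a homeobox gene of caudal progenitors, had 78.1 and 66.0 CPM in the JunKO libraries, against 24.9 and 27.2 CPM in the WT libraries (1.46 ± 0.27, edgeR adjusted p = 0.0279), and lost the call without any 1 of the 4 iCD1 libraries. The list had 0 calls without either WT library. Fgf5, the usual primed marker, was near 0 in all 4 libraries, at 0 and 0.571 CPM in the JunKO libraries and 0 in both WT libraries, so no difference was detectable at this depth.

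Promoters of 3 of the pluripotency genes that rose are shown with the octamer core that Pou5f1 binds, ATGCAAA on either strand, in capitals (RefSeq, GRCm38.p6, the 250 bases before the start site; each read along the gene's strand). The letters were found in 309 of the 10002 tested genes with a promoter in the table (3.09%), in 2 of 50 genes higher outside chromosome 8 (Nanog and Sox2), in 4 of 65 genes higher on chromosome 8 (6.15%, Zfp42 among them) and in 0 of 22 lower genes.
Nanog, chr6:122707239-122707488, plus strand: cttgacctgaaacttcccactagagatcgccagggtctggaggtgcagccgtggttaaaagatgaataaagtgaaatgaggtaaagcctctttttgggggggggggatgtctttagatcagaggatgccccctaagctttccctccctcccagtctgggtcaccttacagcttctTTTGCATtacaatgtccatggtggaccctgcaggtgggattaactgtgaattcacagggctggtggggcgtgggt
Sox2, chr3:34649745-34649994, plus strand: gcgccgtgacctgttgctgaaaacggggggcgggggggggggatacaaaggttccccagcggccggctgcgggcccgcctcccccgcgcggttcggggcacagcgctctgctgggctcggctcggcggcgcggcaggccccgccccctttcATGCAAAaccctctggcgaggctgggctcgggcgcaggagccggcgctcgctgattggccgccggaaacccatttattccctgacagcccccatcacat
Zfp42, chr8:43307010-43307259, minus strand: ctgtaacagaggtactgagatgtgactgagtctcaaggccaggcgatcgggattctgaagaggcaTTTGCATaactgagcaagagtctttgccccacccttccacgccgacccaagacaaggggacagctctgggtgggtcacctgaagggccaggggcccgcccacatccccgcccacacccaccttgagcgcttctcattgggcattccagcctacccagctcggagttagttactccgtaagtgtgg

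The AP-1 element TGACTCA, which Jun and Fos dimers bind and which reads TGAGTCA on the other strand, was searched in the same windows. It was found in 273 of 10002 promoters (2.73%), in 1 of 50 genes higher outside chromosome 8 (2%: Gstp2), in 3 of 65 higher on chromosome 8 (4.62%) and in 1 of 22 lower genes (4.55%: Plcb3). The related element TGACGTCA was found in 2.82% of all promoters, in 2 of 50 genes higher outside chromosome 8 (4%), in 4 of 65 higher on chromosome 8 (6.15%) and in 0 of 22 lower genes. A match is a description of letters in a window. Plcb3, a phospholipase chosen after values were seen, is shown as the 1 lower gene whose window holds the element, in capitals.
Plcb3, chr19:6969815-6970064, minus strand: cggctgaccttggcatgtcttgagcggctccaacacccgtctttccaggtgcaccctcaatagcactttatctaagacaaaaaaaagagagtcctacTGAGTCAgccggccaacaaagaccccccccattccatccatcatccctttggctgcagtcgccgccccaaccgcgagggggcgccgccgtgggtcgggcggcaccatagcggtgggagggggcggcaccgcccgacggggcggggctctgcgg

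Apart from Jun, no AP-1 subunit passed the test in the fit of all 12 libraries. Of 19 subunits and relatives tested, Jun fell and 18 did not pass. The list's median log2 fold change outside chromosome 8 was -0.57, and 18 of the 19 values were below 0. Without WT replicate 1, 5 of the 19 were above 0, 3 without JunKO replicate 1, and 2 without the replicate 2 library of either genotype. Fos, the usual partner of Jun, had 181 and 68.6 CPM in the JunKO libraries, against 289 and 187 CPM in the WT libraries (-0.94 ± 0.36, edgeR adjusted p = 0.293), though it passed without JunKO replicate 1, at -1.80 (edgeR adjusted p = 0.0271). Junb, a relative of Jun on chromosome 8, had 44.5 and 53.4 CPM in the JunKO libraries, against 63.6 and 66.9 CPM in the WT libraries (-0.41 ± 0.18, edgeR adjusted p = 0.374).

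Atf3, a stress-induced partner, had 15.2 and 12.9 CPM in the JunKO libraries, against 34.6 and 14.4 CPM in the WT libraries (-0.80 ± 0.45, edgeR adjusted p = 0.520). Fosl2, a Fos relative, had 2.90 and 3.43 CPM in the JunKO libraries, against 6.57 and 5.58 CPM in the WT libraries (-0.93 ± 0.47, edgeR adjusted p = 0.462). Jund, on chromosome 8, overlapped between genotypes, at 289 and 154 CPM in the JunKO libraries and 259 and 214 CPM in the WT libraries.

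None of 14 JNK pathway genes tested was called; their median log2 fold change outside chromosome 8 was -0.07. Mapk8, which encodes JNK1, had 67.1 and 73.1 CPM in the JunKO libraries, against 113 and 87.3 CPM in the WT libraries (-0.52 ± 0.16, edgeR adjusted p = 0.162). Mapk9, which encodes JNK2, stood at 42.9 and 46.9 CPM in the JunKO libraries and 43.6 and 50.9 CPM in the WT libraries. Of 28 AP-1 targets and immediate early genes tested, 1 rose and 0 fell, with a median of -0.22 outside chromosome 8. The one called was Ccn2, a matrix-associated growth factor also listed as a Hippo target, at 26.5 and 25.4 CPM in the JunKO libraries against 2.77 and 4.59 CPM in the WT libraries (2.80 ± 0.43, edgeR adjusted p = 0.0171). It lost the call without either WT library and without JunKO replicate 2.

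Imprinted genes, which are expressed from 1 parental copy, moved in both directions. Of 27 tested, 3 rose, 5 fell and 19 did not pass, with a median log2 fold change of 0.03. None of them lies on chromosome 8, outside which 0.635% of the genes tested rose and 0.225% fell. Calls numbered 2 without either WT iCD1 library. These genes came to attention after earlier results of these data were known.

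Cdkn1c, a cell cycle inhibitor expressed from the maternal copy, had no count in either JunKO library, against 20.8 and 21.3 CPM in the WT libraries. With 3 counts over the JunKO group as a floor, it was at least 46.3-fold lower in JunKO (125 counts in the WT libraries), and its call held in each of the 12 fits that left out 1 library. Phlda2, its maternally expressed neighbour on chromosome 7, had 7.10 and 18.3 CPM in the JunKO libraries, against 104 and 121 CPM in the WT libraries (-3.13 ± 0.45, edgeR adjusted p = 0.0140), and the call was lost without either WT library. Kcnq1ot1, the paternally expressed noncoding RNA of the same cluster, had 39.0 and 49.7 CPM in the JunKO libraries, against 22.1 and 19.03 CPM in the WT libraries and did not pass (edgeR adjusted p = 0.112).

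The H19 and Igf2 pair moved in opposite directions. H19, a maternally expressed noncoding RNA, had 1856 and 1513 CPM in the JunKO libraries, against 363 and 274 CPM in the WT libraries (2.40 ± 0.29, edgeR adjusted p = 0.00677). Igf2, the paternally expressed growth factor beside it, had 900 and 751 CPM in the JunKO libraries, against 2989 and 2956 CPM in the WT libraries (-1.85 ± 0.31, edgeR adjusted p = 0.0202). In each gene the genotypes were well separated and the replicates of a genotype close. Both lost the call without either WT library, where the log2 fold change was 2.23 to 2.62 for H19 and -1.84 for Igf2, and Igf2 also lost it without JunKO replicate 2 (-1.72, adjusted p = 0.121 by edgeR).

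Igf2r and its antisense RNA Airn formed another such pair on chromosome 17. Igf2r, the maternally expressed receptor that clears IGF2, had 320 and 189 CPM in the JunKO libraries, against 751 and 595 CPM in the WT libraries (-1.41 ± 0.22, edgeR adjusted p = 0.0188). Airn had 11.6 and 5.43 CPM in the JunKO libraries, against 0 and 0.328 CPM in the WT libraries. With 55 counts over the JunKO libraries and 1 over the WT libraries, the Airn ratio was 49.5, with a 95% exact interval of 8.52 to 1991 for counting error. Airn overlaps Igf2r on the opposite strand, and the use of strand in counting is not given in the sources used here, so reads of the 2 genes may be mixed. Airn lost the call without any 1 of the 4 iCD1 libraries, and Igf2r without either WT library or JunKO replicate 2.

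Grb10, an adaptor that restrains insulin and IGF signalling, had 11.6 and 10.3 CPM in the JunKO libraries, against 61.2 and 71.8 CPM in the WT libraries (-2.60 ± 0.27, edgeR adjusted p = 0.00409). Rian, a maternally expressed noncoding RNA of the Dlk1 cluster on chromosome 12, had 1108 and 808 CPM in the JunKO libraries, against 489 and 408 CPM in the WT libraries (1.09 ± 0.24, edgeR adjusted p = 0.0496). Its neighbour Meg3 had 942 and 553 CPM in the JunKO libraries, against 405 and 276 CPM in the WT libraries and missed (edgeR adjusted p = 0.0874). Rian lost the call without any 1 of the 4 iCD1 libraries. Rian and Igf2r, and the genes of the imprinted list given here that were not called, were named after their values were seen. Peg10, Mest and Snrpn, imprinted genes on chromosomes 6 and 7, had log2 fold changes of 0.12, -0.05 and 0.25 and were not called.

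**Figure D2:**
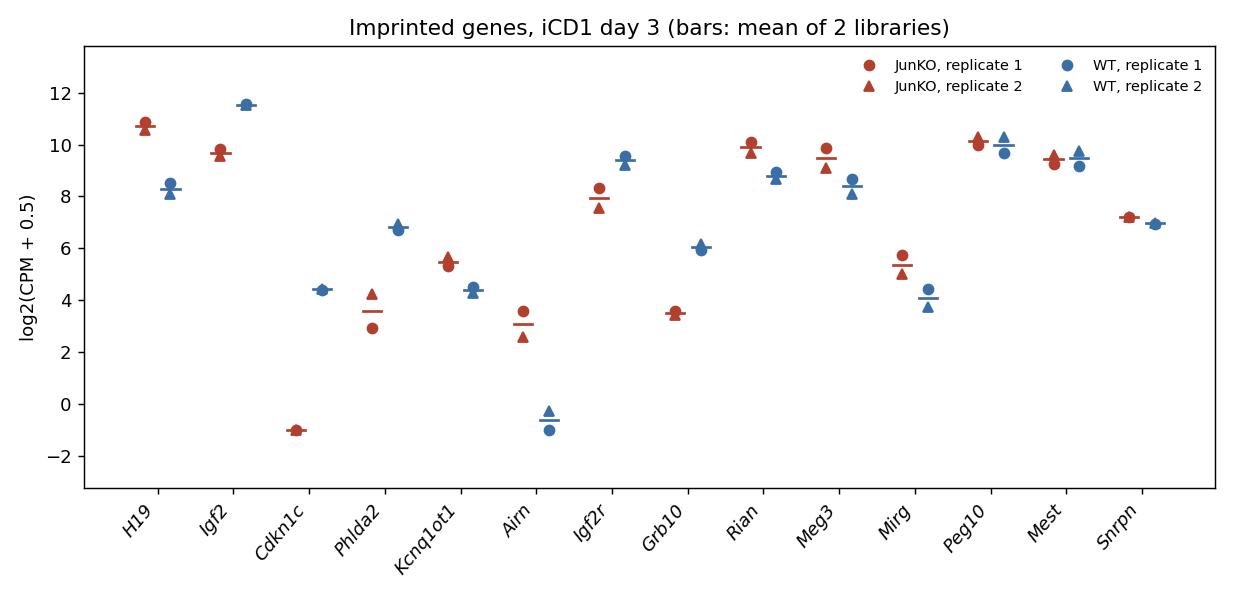
Levels of 14 imprinted genes on the y axis as log2(CPM + 0.5), with JunKO libraries (red) left of WT libraries (blue); circles are replicate 1, triangles replicate 2 and bars the mean of 2 libraries on this scale. Cdkn1c is at 0 counts in both JunKO libraries, H19 and Airn are higher in JunKO, Igf2, Igf2r, Phlda2 and Grb10 are lower, and Peg10 and Mest overlap.

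Outside the lists, the genes with the largest rises outside chromosome 8 included Trh, the thyrotropin-releasing hormone precursor. It had 32.9 and 99.4 CPM in the JunKO libraries, against 0.692 and 4.92 CPM in the WT libraries (4.53 ± 0.75, edgeR adjusted p = 0.0202). Gpa33, a cell surface antigen, had 13.2 and 28.9 CPM in the JunKO libraries, against 0.346 and 2.62 CPM in the WT libraries (3.77 ± 0.61, edgeR adjusted p = 0.0202). Ap1m2, a clathrin adaptor subunit of epithelial cells, had 14.2 and 22.6 CPM in the JunKO libraries, against 1.38 and 2.30 CPM in the WT libraries (3.29 ± 0.46, edgeR adjusted p = 0.0134). Others by the same rule were Phf11d, Sh3gl2 and Inpp5d, with log2 fold changes of 3.38, 3.31 and 2.97; Phf11d has close copies, between which reads may be split. Trh, Gpa33, Phf11d, Sh3gl2 and Inpp5d lost the call without either WT library or JunKO replicate 2, and Ap1m2 without either WT library.

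The lower genes included En2, Nr2f1 and Gata3. En2, a homeobox gene of the midbrain and hindbrain, had 2.26 and 4 CPM in the JunKO libraries, against 22.5 and 28.9 CPM in the WT libraries (-3.01 ± 0.50, edgeR adjusted p = 0.0202). Nr2f1, a nuclear receptor of differentiating cells, had 18.7 and 24.0 CPM in the JunKO libraries, against 86.8 and 59.0 CPM in the WT libraries (-1.77 ± 0.27, edgeR adjusted p = 0.0171). Gata3, a zinc finger factor of trophoblast and other lineages, had 0.323 and 0.857 CPM in the JunKO libraries, against 6.92 and 7.22 CPM in the WT libraries (-3.47 ± 0.74, edgeR adjusted p = 0.0476). All 3 lost the call without any 1 of the 4 iCD1 libraries.

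Cpm, which encodes carboxypeptidase M, had 3.23 and 8 CPM in the JunKO libraries, against 51.2 and 45.3 CPM in the WT libraries (-3.08 ± 0.48, edgeR adjusted p = 0.0183), and lost the call without either WT library. Rbmx, an X-linked RNA-binding protein with processed copies elsewhere, had 24.9 and 21.4 CPM in the JunKO libraries, against 68.5 and 104 CPM in the WT libraries (-1.90 ± 0.21, edgeR adjusted p = 0.0049). Cacna2d1, a calcium channel subunit, Sel1l3 and Xlr3b had log2 fold changes of -1.95, -1.92 and -2.11, and Xlr3b belongs to a family of near-identical X-linked genes. Each of them lost the call without either WT library. Xlr3b also lost it without either JunKO library, Cacna2d1 without JunKO replicate 1 and Sel1l3 without JunKO replicate 2.

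Of 26 epithelial genes tested, 1 rose (Cdh1) and 0 fell, with no call outside chromosome 8, and the median log2 fold change was 0.28 outside chromosome 8. Cdh1 (E-cadherin) lies on chromosome 8 and had 106 and 199 CPM in the JunKO libraries, against 35.3 and 53.5 CPM in the WT libraries (1.78 ± 0.38, edgeR adjusted p = 0.0472). The call was lost without either WT library and without JunKO replicate 2. None of 24 mesenchymal genes and none of 26 collagen and matrix genes was called, with medians of 0.15 and -0.17 outside chromosome 8.

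Lists of signalling and metabolism gave few calls. With 1.57% of all genes tested called, lists of this size would hold few or none, so no result about these pathways is read from the counts. The same applies to the other lists above and below with no calls. None was called among 16 ERK feedback genes, 18 WNT targets, 14 LIF and STAT3 genes, 23 cholesterol genes, 26 oxidative phosphorylation genes, 21 ATF4 targets, 18 p53 targets or 19 G2/M genes. Among the 26 glycolysis and hypoxia genes tested, Slc2a3, the neuronal-type glucose transporter, rose. It had 762 and 647 CPM in the JunKO libraries, against 411 and 351 CPM in the WT libraries (0.89 ± 0.15, edgeR adjusted p = 0.0202), and lost the call without either WT library or JunKO replicate 1. Of 23 DNA replication genes tested, 2 rose, Mcm5 and Cdt1, both on chromosome 8, with log2 fold changes of 0.65 and 0.62. Both lost the call without either WT library or JunKO replicate 2, and Cdt1 also without JunKO replicate 1. Of 29 Hox genes tested and of 26 chromatin remodelling genes tested, none was called.

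Markers of other cell types were examined, since a mixed culture can hold them. Of the 8 blood and endothelial markers, 6 were tested, of which 1 was called and 5 had a positive log2 fold change. Their summed CPM was 44.2 and 73.4 in the JunKO libraries, against 7.26 and 11.2 in the WT libraries. Cdh5 (VE-cadherin, on chromosome 8) rose, at 11.3 and 19.1 CPM in the JunKO libraries against 0.346 and 0.984 CPM in the WT libraries (4.43 ± 0.87, edgeR adjusted p = 0.0417), a call lost without either WT library or JunKO replicate 2. Pecam1, which naive cells also express and which is in the naive list as well, had 11.6 and 21.4 CPM in the JunKO libraries, against 1.38 and 4.59 CPM in the WT libraries and did not pass (edgeR adjusted p = 0.1197).

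Tal1 and Kdr, a factor and a receptor of that lineage, did not pass either (edgeR adjusted p = 0.179 and 0.162). Gata1 had no count in any of the 4 libraries and Emcn was at 0 in both WT libraries and under 1 CPM in JunKO. Runx1, a factor of blood stem cells, ran the other way, at 2.26 and 0.571 CPM in the JunKO libraries against 2.77 and 2.63 CPM in the WT libraries, and was not called. The list's summed level was higher in JunKO, as it was for the naive genes, and its part in that result was not tested. In trophoblast markers the sum was 214 and 152 CPM in the JunKO libraries, against 120 and 101 CPM in the WT libraries, carried by Cdx2, and 1 of 6 tested (Gata3) fell. None was called of 7 primitive endoderm, 9 mesendoderm, 6 neural or 7 fibroblast markers tested. T, a mesendoderm gene that the study names, had 480 and 95.7 CPM in the JunKO libraries, against 127 and 99.1 CPM in the WT libraries, so that 1 JunKO library stood far above the rest.

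The JunKO difference in iCD1 was then set beside that in the same medium with JNKi and in primed cells. These comparisons share no library with the iCD1 one, though they share its fit. With JNKi, 123 genes differed between JunKO and WT cells (0.935%), 85 higher and 38 lower. In primed cells 44 differed (0.335%), 27 higher and 17 lower. Of the 28 naive genes, 1 rose with JNKi (Tdgf1) and 0 in primed cells. Their median log2 fold change was 2.44 in iCD1, 0.91 with JNKi and 0.40 in primed cells.

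In 26 of the 28 naive genes the JunKO difference was larger in absolute size in iCD1 than with JNKi, against 6152 of all 13152 genes tested. This held for all 14 that were called in iCD1, but those were chosen by their iCD1 value, which favours that direction. Nanog shows how the levels lay. With JNKi it had 148 and 127 CPM in the JunKO libraries, against 62.9 and 80.7 CPM in the WT libraries (log2 fold change 0.93, edgeR adjusted p = 0.241). Esrrb had 168 and 87.7 CPM with JNKi in the JunKO libraries, against 56.3 and 89.3 CPM in the WT libraries, so there the genotypes overlapped. In both genes the WT libraries with JNKi stood above the WT libraries in iCD1 alone.

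The difference between the 2 JunKO effects was tested as an interaction. A JunKO effect here is the difference between JunKO and WT cells. Loss of Jun cannot be told apart in it from other differences between these cells, chromosome 8 among them. With edgeR, 0 of 13152 genes passed when iCD1 was set against JNKi (0% called), with 750 at an unadjusted p under 0.05 (5.70%). DESeq2 called 1 gene, Bcam, which encodes a cell adhesion molecule. Without JunKO replicate 1 with JNKi, edgeR called 171. For Nanog the interaction was 1.60 ± 0.59 on the log2 scale (unadjusted p = 0.0195, edgeR adjusted p = 0.855), and for Sox2 it was 0.73 ± 0.19 (unadjusted p = 0.00237, edgeR adjusted p = 0.855).

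Set against primed cells, 2 genes passed (0.0152% called, edgeR), Slc2a3 and Sox2, with 730 at an unadjusted p under 0.05 (5.55%). Slc2a3 had 762 and 647 CPM in JunKO iCD1 libraries and 411 and 351 CPM in WT iCD1 libraries, but 635 and 492 CPM in JunKO primed libraries and 1620 and 950 CPM in WT primed libraries. It was thus higher in JunKO in iCD1 and lower in JunKO in primed cells (log2 fold changes 0.89 and -1.15; difference 2.04 ± 0.21, edgeR adjusted p = 0.0115). Sox2 had 205 and 206 CPM in JunKO iCD1 libraries and 89.9 and 101 CPM in WT iCD1 libraries, but 61.8 and 87.3 CPM in JunKO primed libraries and 87.5 and 113 CPM in WT primed libraries (difference 1.54 ± 0.19, edgeR adjusted p = 0.0435). Neither passed without any 1 of the 4 primed libraries, where the adjusted p was 0.0823 or more for Slc2a3 and 0.380 or more for Sox2. Both were also lost without either WT iCD1 library and without either WT library with JNKi, and Sox2 without either JunKO iCD1 library.

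Among the 79 genes called higher in iCD1 outside chromosome 8, 77 had a positive JunKO log2 fold change with JNKi (median 1.19) and 55 had one in primed cells (median 0.49), against a median of 2.59 in iCD1. These genes were chosen by their iCD1 values, so the larger iCD1 median is a description. Over all genes tested, 61.1% kept their sign with JNKi and 56.8% in primed cells. Of the imprinted genes, Igf2, Phlda2, Igf2r and Rian were also called with JNKi, at log2 fold changes of -2.79, -2.91, -1.12 and 1.19, and so was Cdkn1c, at 0.561 and 0.889 CPM in the JunKO libraries against 16.4 and 24.4 CPM in the WT libraries. In primed cells, Cdkn1c and Rian were called, and Rian's log2 fold change was 1.66. Cdkn1c had no count in either JunKO primed library, against 6.56 and 8.06 CPM in the WT primed libraries.

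**Figure D3:**
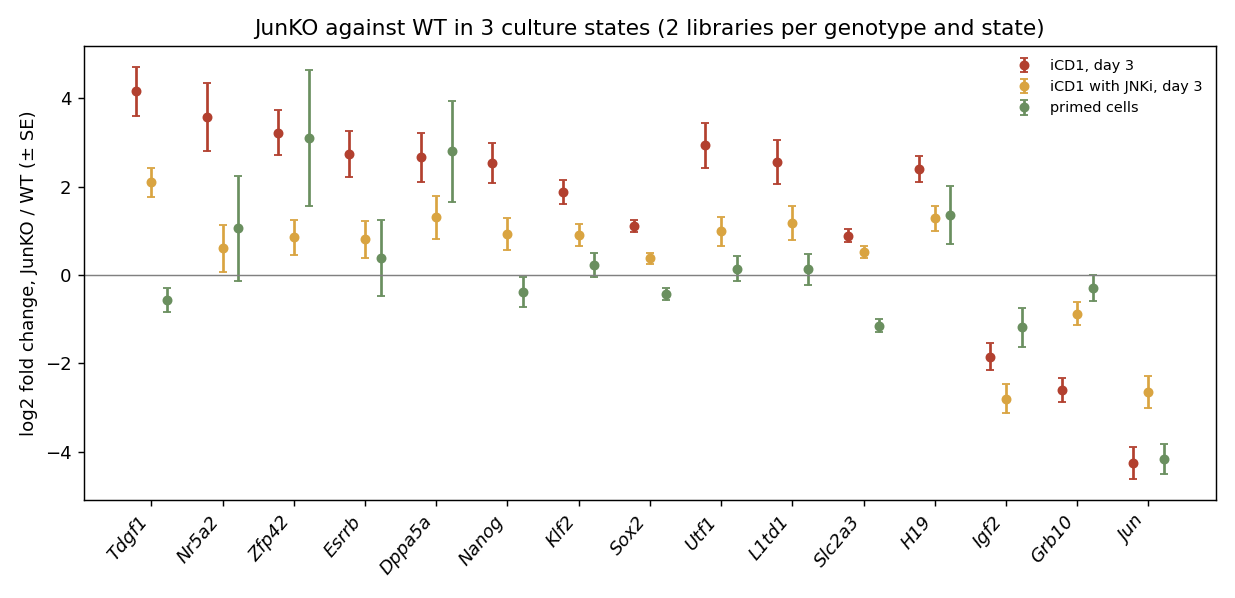
The y axis gives the log2 fold change of JunKO over WT with its standard error for 15 genes in iCD1 on day 3 (red), in iCD1 with JNKi on day 3 (yellow) and in primed cells (green), each from 2 libraries per genotype. In primed cells these 2 libraries are of different lines, iEpiSC and kiEpiSC. In most pluripotency genes the iCD1 value lies highest, the primed values of Dppa5a and Zfp42 have wide errors and lie near the iCD1 ones, and Slc2a3 and Sox2 are above 0 in iCD1 and below 0 in primed cells.

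Chromosome 8 was raised as a whole in JunKO cells. Loss of Jun and this rise went together in every state, so their parts in the other differences cannot be told apart. Of its 710 genes tested, 98 were called higher (13.8%) and 1 lower (0.141%), and 637 had a positive log2 fold change (89.7%). Both JunKO libraries lay above both WT libraries in 504 of them (71%). The median was 0.52 in iCD1, 0.53 with JNKi and 0.52 in primed cells. On the other 18 autosomes and X, the medians in iCD1 ran from -0.06 to 0.01. The chromosome held 6.14% and 6.17% of all counts in the JunKO libraries, against 4.28% and 4.34% in the WT libraries.

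Calls on chromosome 8 numbered 0 without WT replicate 1, 6 without WT replicate 2 and 13 without JunKO replicate 2, while its median stayed at 0.52 to 0.55 in these 3 fits. The rise covered the length of the chromosome. In 7 windows of 20 Mb (the last one partly filled), the median log2 fold change was 0.47 to 0.56. The largest changes on it exceeded that level: Apela, a peptide ligand of the apelin receptor, had 25.2 and 31.1 CPM in the JunKO libraries, against 1.73 and 3.94 CPM in the WT libraries (3.29 ± 0.36, edgeR adjusted p = 0.00456), and lost the call without WT replicate 1. Mt2, a metallothionein, had 34.9 and 50.9 CPM in the JunKO libraries, against 1.38 and 4.92 CPM in the WT libraries (3.73 ± 0.65, edgeR adjusted p = 0.0249). Tex15, a germ cell gene, and Triml2 had log2 fold changes of 3.58 and 3.10. Mt2 and Triml2 lost the call without either WT library or JunKO replicate 2, and Tex15 without WT replicate 1 or JunKO replicate 2. Tsnax, a partner of translin, was the one gene called lower, at 13.6 and 21.1 CPM in the JunKO libraries against 52.6 and 47.9 CPM in the WT libraries (-1.52 ± 0.25, edgeR adjusted p = 0.0202). It lost the call without either WT library or JunKO replicate 1.

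**Figure D4:**
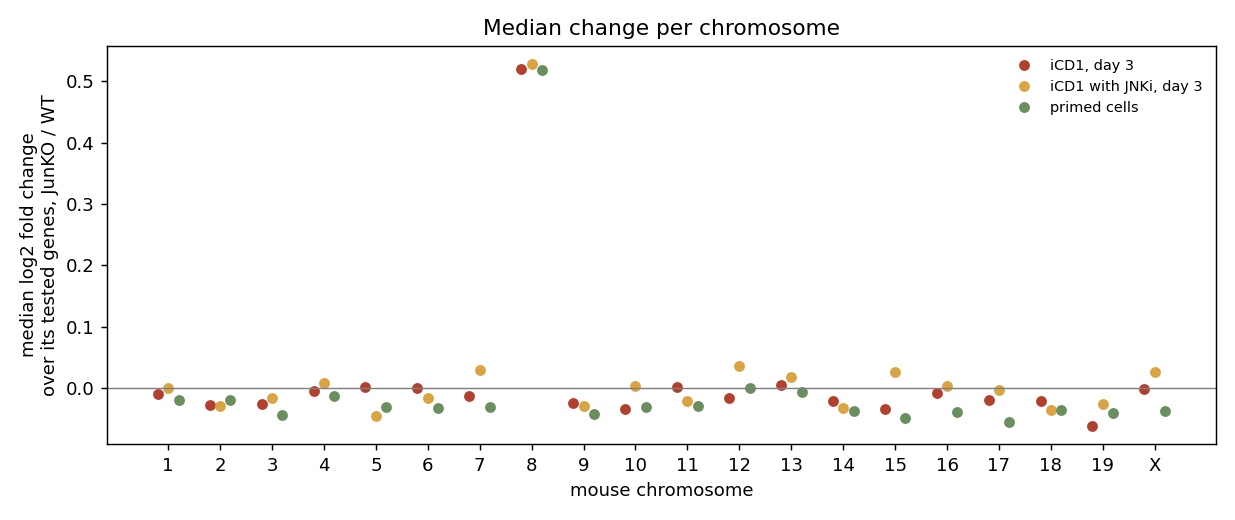
The y axis gives the median log2 fold change of JunKO over WT across the tested genes of each autosome and X (x axis), in iCD1 on day 3 (red), with JNKi on day 3 (yellow) and in primed cells (green). Chromosome 8 stands at 0.52 to 0.53 in the 3 states, while the other autosomes and X lie between -0.06 and 0.04.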

How the data were processed

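RNA was sequenced in 38 mouse libraries. The authors mapped reads to mm10 and deposited RSEM expected counts and TPM per gene for each library. The labels list bcl2fastq, Bowtie2 and RSEM without version numbers. The labels name a TruSeq kit and the study's methods a VAHTS kit. Expected counts were rounded to whole numbers. Of 29267 genes, 28756 were matched to the annotation.

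The 12 WT and JunKO libraries (6 groups) were fitted together in edgeR 4.0.16 (R 4.3.3) with a quasi-likelihood model, TMM scaling and filterByExpr with a minimum count of 10, which left 13152 genes and 5 residual degrees of freedom. The fit held a mean for each combination of genotype and culture state and a term for the primed line. P-values were adjusted over all genes by Benjamini-Hochberg at 0.05. The SE is the fold change divided by the square root of the F statistic. Calls with JNKi and in primed cells, and the differences between JunKO effects, came from the same fit. Intervals and bounds at low counts cover counting error only.

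Alternatives were DESeq2 1.42.0, limma 3.58.1 on log2(TPM + 1) or log2(TPM + 0.1), other scaling, filters, sets of libraries, a replicate block and each library left out. The members and the 38 gene lists were chosen with earlier results of these data known. Genes named were those the study names, up to 6 called members per list, the largest called changes among genes of at least 10 CPM, and AP-1 and JNK genes; 1 item that met this rule is not reported here. The fit was tested on simulated data. Tables were made in python 3.11.15 with pandas 2.3.3, numpy 2.4.6 and scipy 1.17.1, and figures with matplotlib 3.10.9.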

Additional observations from a re-analysis of the deposited data

Results flagged for a closer look

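For 2 genes the JunKO effect in iCD1 differed from that in primed cells by the test of the difference itself (edgeR quasi-likelihood, adjusted over 13152 genes). In Slc2a3 the difference was 2.04 on the log2 scale (adjusted p = 0.0115), with JunKO above WT in iCD1 and below WT in primed cells. Over 20 alternatives it ran from 1.84 to 2.24 and passed in 11, with an adjusted p of up to 0.442. In Sox2 the difference was 1.54 (adjusted p = 0.0435), with the same pair of directions. Over 20 alternatives it ran from 1.46 to 1.64 and passed in 9, with an adjusted p of up to 0.801.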

How the results depend on the processing

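The count of 206 genes that differed between JunKO and WT cells in iCD1 became 822 with no filter beyond 1 count, 52 with genes outside chromosome 8 only, 105 with the 4 libraries compared, 107 with the 8 libraries of day 3, 125 with limma on log2(TPM + 1) and 110 on log2(TPM + 0.1). The share of calls that were higher in JunKO was 85.9%, against 69.2% outside chromosome 8 and 70.5% with the 4 libraries compared. Leaving out 1 library gave 5 to 378 calls. Replicate numbers were shared by the iCD1 groups but nothing states what they pair, and same-numbered libraries deviated together with a correlation of 0.299. With a replicate block there were 354 calls, among them all 206. The interaction with JNKi, with 0 calls, had 221 with no filter beyond 1 count, 1 with a replicate block (Bcam), 1 with DESeq2 (Bcam), 1 with limma on log2(TPM + 0.1) (Fyb), and 0 to 171 when 1 library was left out. The difference from primed cells, with 2 calls, had 199 with no filter beyond 1 count, 20 with a replicate block, 22 with DESeq2, 0 with limma on log2(TPM + 1), 6 on log2(TPM + 0.1), and 0 to 9 when 1 library was left out. The causes were not tested, apart from the fewer genes or libraries that some settings hold by construction. Over all alternatives of the 96 named genes, 1832 values kept direction and call, 390 lost the call, 18 gained it and 36 changed sign. The 36 belong to 17 genes, none of them among the 52 called. Lin28a was -0.000945 with RLE size factors, -0.00104 with DESeq2, -0.00556 with limma on log2(TPM + 1) and -0.00562 on log2(TPM + 0.1). Nfe2l2 was 0.00112 with no filter beyond 1 count and 0.000371 at 1 CPM in 2 libraries. With limma on log2(TPM + 1) and log2(TPM + 0.1), Atf7 was 0.0197 and 0.0209, Dusp10 -0.116 and -0.213, and E2f7 0.274 and 0.290. Leaving out 1 library gave -0.34 to 0.050 for Atf2, -0.26 to 0.39 for Dusp10, -0.42 to 0.13 for Dusp16, -0.34 to 0.37 for E2f7, -2.48 to 0.42 for Fosb, -1.19 to 0.65 for Fosl1, -0.62 to 0.29 for Jund, -0.63 to 0.27 for Klf4, -0.18 to 0.19 for Lin28a, -0.36 to 0.30 for Mafk, -0.31 to 0.12 for Map2k4, -0.28 to 0.19 for Map3k1, -0.25 to 0.30 for Mapk8ip3, -0.18 to 0.055 for Mapk9, -0.35 to 0.28 for Nfe2l2 and -0.24 to 2.09 for T. With 2 libraries per genotype, differences in genes of a few CPM rest on few counts.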

Other observations

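Of 11 genes of the Y chromosome tested, 2 were higher in JunKO cells in iCD1 and 0 lower, with a median log2 fold change of 1.06. Over all genes tested, 1.35% were higher and 0.22% lower. Eif2s3y, a translation factor subunit with a close X-linked copy between which reads may be split, had 60.3 and 72.9 CPM in the JunKO libraries, against 25.6 and 21.3 CPM in the WT libraries (edgeR adjusted p = 0.0134). Eif2s3y lost the call without either WT iCD1 library or JunKO iCD1 replicate 2. The median over the Y genes tested was 1.30 with JNKi and 0.09 in primed cells. Of these genes, 1 was called higher with JNKi (0.646% of all genes tested) and 1 in primed cells (0.205%).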
